A study of Mus musculus with 6 samples.

Results

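The genes described here encode proteins by which osteoclasts, the bone-resorbing cells, develop from their precursors and dissolve bone. These genes were measured in tdTomato-positive skull osteoblast cultures of control and APPswe mice. They were chosen by symbol as a list of 10 genes, all 10 of which have a row among the 17830 genes of the deposited count table. The list holds the transcription factor gene Nfatc1, the receptor genes Oscar and Calcr, the integrin gene Itgb3, the fusion genes Dcstamp and Ocstamp, the proton pump genes Atp6v0d2 and Tcirg1, and the enzyme genes Acp5 and Ctsk. All 6 libraries came from skull bone of mice aged 6 months, 3 of the control genotype mOCN-Cre; Ai9 and 3 of the APPswe genotype TgAPPswemOCN-Cre; Ai9. Both genotypes carry Cre knocked in at the osteocalcin gene Bglap and the Ai9 reporter, which makes red tdTomato after Cre has acted. The APPswe mice carry in addition a human APP transgene with the Swedish mutations, which is driven by the CAG promoter and silent until Cre removes a stop cassette. Cells were grown out of digested calvarial bone fragments, and tdTomato-positive cells of mice described as male, on a C57BL/6J background, were isolated by flow cytometry, so each library is a bulk sample of cells that passed that gate. Whether each library came from one animal or from a pool is not given in the sources used here, so the p-values measure the spread between these samples, which may in part be technical.

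Osteoclasts arise from cells of the monocyte and macrophage lineage, not from osteoblasts. Cells of the osteoblast lineage supply the signals CSF1 and RANKL, which act through the receptors CSF1R and RANK, and the decoy receptor osteoprotegerin, which captures RANKL. Within the precursor, RANK signalling together with immunoreceptors such as OSCAR raises NFATc1, precursors fuse into multinucleated cells, and the mature cell seals itself to bone with an integrin, pumps protons through a V-ATPase and secretes acid phosphatase and cathepsin K.

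The libraries held between 17263757 and 18398392 counts, and 3 counts, taken as the floor of detection, corresponded to between 0.167 and 0.173 CPM, the counts scaled to library size after TMM normalization. The floors, and the exact intervals of count ratios, cover counting error only, whereas the edgeR intervals include the spread between replicates. Control 2 stood apart from the other libraries of its group. It held 2 counts over Uty, Kdm5d, Ddx3y and Eif2s3y, 4 genes of the Y chromosome, against 2257 to 3406 counts in each of the others, although the study describes the animals of this experiment as male. It also held 1 count of Bglap, the osteocalcin gene, against 115 to 204 counts in each of the others, so transcripts of the gene that drives Cre were almost absent there. Its deposited name carries the letter S where the other 5 carry L, and the labels do not explain the letters. Results are therefore given with control 2, and some of them also without it. A value given only with control 2 may still have moved. Without control 2, the edgeR log2 fold change of APPswe over control went from 3.10 to 3.50 for Oscar. For the related gene Mmp9 it went from 5.83 to 5.37. The human transgene has no row of its own, so it could not be used to check the genotype labels. The mouse App gene was at a mean of 1119 CPM in control and 1036 CPM in APPswe libraries (edgeR adjusted p = 0.507), and the groups overlapped.

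Of the 9 members that passed edgeR's filter on low counts, 3 were called higher in APPswe libraries and none was called lower, where a called gene had to pass both limits, 0.05 on the adjusted p and 1 on the size of the log2 fold change. Among all 13484 genes tested, 3.74% were called higher and 3.6% lower, 7.34% in either direction. The called members were Acp5, Ocstamp and Oscar, an enzyme, a fusion protein and a receptor of osteoclasts. Ctsk passed the limit on the adjusted p but not the limit on the fold change. Dcstamp, Atp6v0d2, Itgb3, Nfatc1 and Tcirg1 did not pass the test, and Calcr had too few counts to be tested. The median log2 fold change was 0.77 over the 9 members tested and -0.0033 over all genes tested, and Oscar and Ocstamp reached the filter only through their APPswe libraries. Without control 2, Dcstamp was called higher as well and Itgb3 was called lower, which made 4 members higher and 1 lower of 9 tested, where 4.87% of all genes tested were called higher and 6.58% lower.

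**Figure D1:**
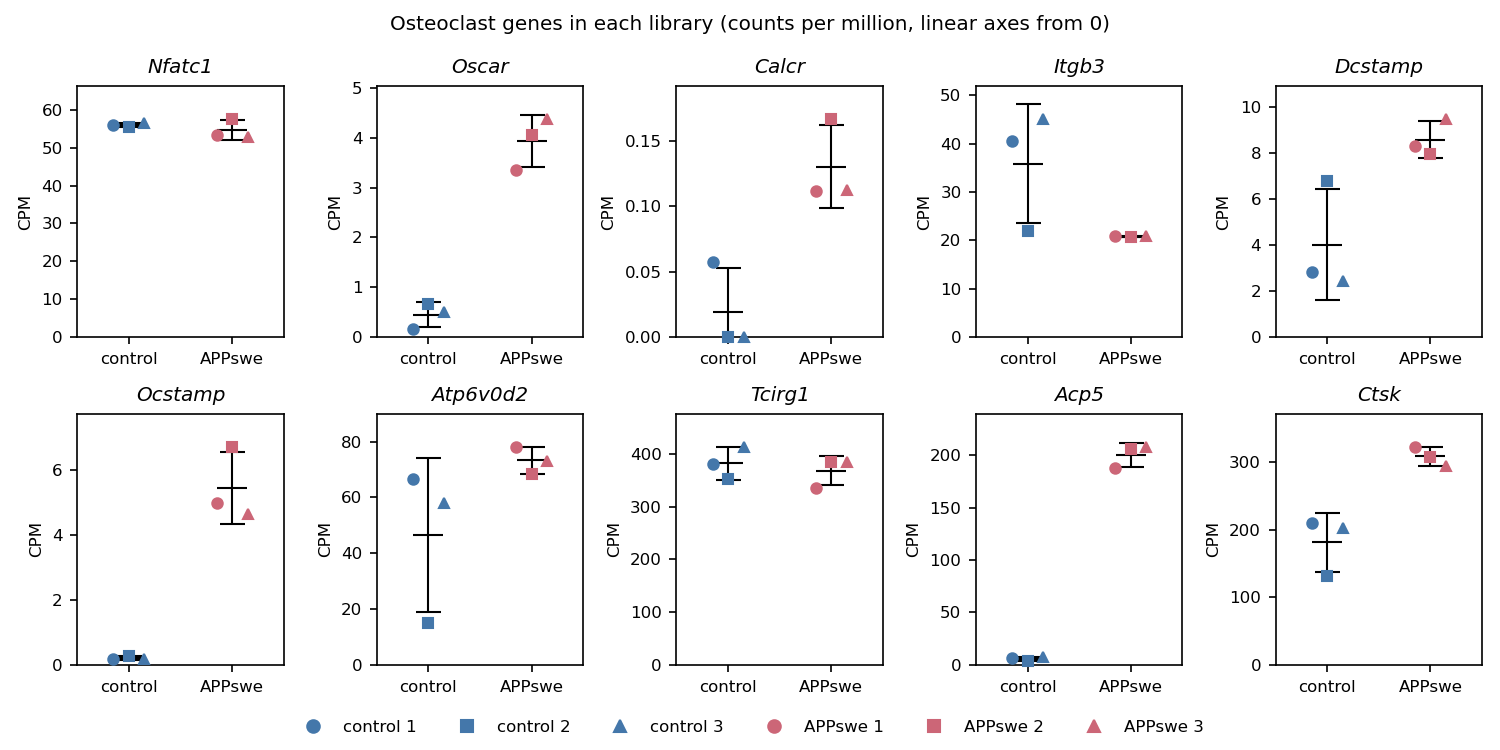
Level of each of the 10 osteoclast genes in CPM (vertical axes, linear from 0) in the 3 control and 3 APPswe libraries, with the replicate shown by the symbol, the mean by a bar and the SD by whiskers. Acp5, Ocstamp and Oscar lie far apart between genotypes, and Nfatc1 and Tcirg1 overlap. Control 2 (square) departs from the other controls for Itgb3, Dcstamp, Atp6v0d2 and Ctsk. It was also at 0.531, 1.98 and 1.64 times the mean of the other controls for Acp5, Oscar and Ocstamp, with few counts for Oscar and Ocstamp.

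The sequences before the start sites are shown for Acp5 and Oscar, which were called, and for Ctsk, which passed the limit on the adjusted p. RefSeq windows of GRCm38.p6, from 250 bases before to 50 bases after a start site, were found for 5 of the 10 members, in 10 windows, because some genes have several start sites. The called member Ocstamp was not among the 5. Acp5 has 3 windows, of which the one that holds an M-box is shown. Capitals mark GGAAA, the core letters bound by NFAT factors, or its reverse complement, and, in Acp5, the M-box TCATGTG of the MITF family in reverse complement.
Acp5, chr9:22130549-22130848, minus strand: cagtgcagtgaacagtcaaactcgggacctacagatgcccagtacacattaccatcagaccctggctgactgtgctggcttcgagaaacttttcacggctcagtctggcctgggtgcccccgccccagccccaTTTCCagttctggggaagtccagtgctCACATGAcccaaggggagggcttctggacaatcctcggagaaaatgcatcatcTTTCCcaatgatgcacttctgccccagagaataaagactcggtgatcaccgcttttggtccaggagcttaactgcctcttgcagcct
Oscar, chr7:3616108-3616407, minus strand: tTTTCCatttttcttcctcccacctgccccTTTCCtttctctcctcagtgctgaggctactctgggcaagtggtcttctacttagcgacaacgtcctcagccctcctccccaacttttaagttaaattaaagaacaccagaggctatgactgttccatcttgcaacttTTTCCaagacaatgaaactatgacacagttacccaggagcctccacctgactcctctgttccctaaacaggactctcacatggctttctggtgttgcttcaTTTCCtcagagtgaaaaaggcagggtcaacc
Ctsk, chr3:95498960-95499259, plus strand: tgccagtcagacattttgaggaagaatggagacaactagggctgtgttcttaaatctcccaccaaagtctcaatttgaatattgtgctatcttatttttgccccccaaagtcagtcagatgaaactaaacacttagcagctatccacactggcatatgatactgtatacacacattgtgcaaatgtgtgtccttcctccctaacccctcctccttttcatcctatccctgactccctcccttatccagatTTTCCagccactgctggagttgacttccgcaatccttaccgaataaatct
The Oscar window holds 4 GGAAA matches, the shown Acp5 window 2 and the Ctsk window 1, counted on both strands. GGAAA is short and stands in 61.3% of all 32851 windows, and in 7 of the 10 member windows. The M-box, whose letters include one form of the E-box CANNTG, stands in 3.77% of all windows and in 1 of the 10 member windows. The E-box stands in 72.3% of all windows and in 8 member windows. The AP-1 letters TGANTCA (7.81% of all windows) and the ETS letters GAGGAAGT (3.2%) were in none of the 10. A match is a run of letters and not a measured binding site.

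Acp5 encodes tartrate-resistant acid phosphatase, the enzyme by which osteoclasts are stained in bone sections. It lies at chr9:22126727-22135746 on GRCm38. Its level was 6.87, 3.71 and 7.11 CPM in control 1, 2 and 3, and 187, 205 and 208 CPM in APPswe 1, 2 and 3. Every APPswe library was thus above 180 CPM and every control library below 8 CPM, with no overlap. The log2 fold change was 5.09 (standard error 0.24, 95% interval 4.51 to 5.66, edgeR adjusted p = 0.000296), a 34.0-fold difference, and it was 4.84 without control 2. An exon of the transcript 6530413G14Rik on the other strand overlaps Acp5 in the GENCODE annotation, and whether the counting used strand is not given in the sources used here.

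Ctsk encodes cathepsin K, the cysteine protease that cuts bone collagen, and lies at chr3:95499210-95509387. It was abundant in both genotypes, with 210, 131 and 202 CPM in the control libraries and 323, 308 and 294 CPM in the APPswe libraries. All APPswe values were above all control values, although the lowest control, control 2, was at 0.635 times the mean of the other controls. The log2 fold change was 0.77 (standard error 0.18, 95% interval 0.34 to 1.19, edgeR adjusted p = 0.0259), a 1.70-fold difference. Without control 2 it was 0.58, with an edgeR adjusted p of 3.32e-05, and the highest adjusted p with any library left out was 0.0934. The difference was thus far smaller than that of Acp5.

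Ocstamp and Dcstamp encode multipass membrane proteins needed for the fusion of osteoclast precursors. Ocstamp, at chr2:165395450-165400394, had 3, 5 and 3 counts in the control libraries and 89, 121 and 83 counts in the APPswe libraries. In CPM this was 0.173, 0.281 and 0.169 against 4.99, 6.74 and 4.66. The controls were thus at or just above the floor of detection, and the APPswe libraries well above it. By the edgeR fit the log2 fold change was 4.67 (standard error 0.31, edgeR adjusted p = 0.000524). Since a fitted fold change depends on the few control counts, the ratio of the summed counts per effective library size was also taken, and it was 26.3 with an exact 95% interval of 14.5 to 53.2.

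Dcstamp, at chr15:39745930-39760938, differed in pattern from its partner. It was at 2.83, 6.80 and 2.43 CPM in control 1, 2 and 3, and at 8.29, 7.96 and 9.49 CPM in APPswe 1, 2 and 3. The groups did not overlap, but control 2 lay nearer to the APPswe libraries than to the other controls. The log2 fold change of 1.09 (standard error 0.39, 95% interval 0.17 to 2.02) did not pass with all libraries (edgeR adjusted p = 0.0887). Without control 2 it was 1.71, with an edgeR adjusted p of 1e-05. Dcstamp also passed in DESeq2's test (adjusted p = 0.0407) and with limma on log2(FPKM + 0.1).

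Atp6v0d2 and Tcirg1 encode the d2 and a3 subunits of the membrane domain of the V-ATPase, the forms that osteoclasts use at the ruffled border, and the d2 subunit is also needed for fusion. Atp6v0d2, at chr4:19876838-19922566, was at 66.4, 15.1 and 58.1 CPM in the controls and 78.2, 68.5 and 73.1 CPM in the APPswe libraries. The APPswe libraries lay above the controls, though only narrowly above control 1. Control 2 held 0.242 times the mean of the other controls, the largest departure of that library in this direction among the 9 members tested. The log2 fold change was 0.66 (95% interval -0.48 to 1.79, edgeR adjusted p = 0.358), and 0.24 without control 2 (edgeR adjusted p = 0.0395). Tcirg1, at chr19:3896050-3907133, was at 380, 351 and 414 CPM in the controls and 336, 384 and 384 CPM in the APPswe libraries, and the groups overlapped. Its log2 fold change of -0.054 had a 95% interval of -0.28 to 0.18 (edgeR adjusted p = 0.725), and the sign of this small value turned in 6 of 18 alternative settings.

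Oscar encodes an immunoreceptor that binds collagen and signals through the adaptor FcRgamma alongside RANK. It lies at chr7:3609813-3616157. It had 3, 12 and 9 counts in the control libraries and 60, 73 and 78 counts in the APPswe libraries, or 0.173, 0.674 and 0.508 CPM against 3.36, 4.06 and 4.38 CPM. Every APPswe library was above every control library. Its log2 fold change was 3.10 (standard error 0.41, edgeR adjusted p = 0.00377), and the ratio of summed counts was 8.67 with an exact 95% interval of 5.67 to 13.8. The call held with each library left out in turn, with edgeR adjusted p-values up to 0.0302.

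Itgb3 encodes the beta3 chain of the integrin with which osteoclasts attach to bone, and it was the member that lay lower in APPswe libraries. This gene, at chr11:104608000-104670476, was at 40.5, 22.0 and 45.1 CPM in the controls and 20.9, 20.7 and 20.8 CPM in the APPswe libraries. The APPswe values were nearly identical to each other, and control 2 lay just above them. The fitted log2 fold change with every library included was -0.79 (standard error 0.25, 95% interval -1.39 to -0.18, edgeR adjusted p = 0.0672). Without control 2 the gene was called lower, with a log2 fold change of -1.04 and an edgeR adjusted p of 2.68e-06.

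Nfatc1, on chromosome 18, encodes the transcription factor that directs osteoclast differentiation, and its level did not pass the test. It was at 55.9, 55.3 and 56.4 CPM in the controls, the smallest relative spread among the members in that group, and at 53.4, 57.6 and 52.8 CPM in the APPswe libraries. The log2 fold change was -0.032 with a 95% interval of -0.20 to 0.14 (edgeR adjusted p = 0.778), and the groups overlapped. Calcr, at chr6:3685678-3764713, encodes the calcitonin receptor of mature osteoclasts. It had 1, 0 and 0 counts in the controls and 2, 3 and 2 counts in the APPswe libraries. Every library was at or under the floor of 3 counts, so no fold is given and its expression was not detectable at this depth.

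**Figure D2:**
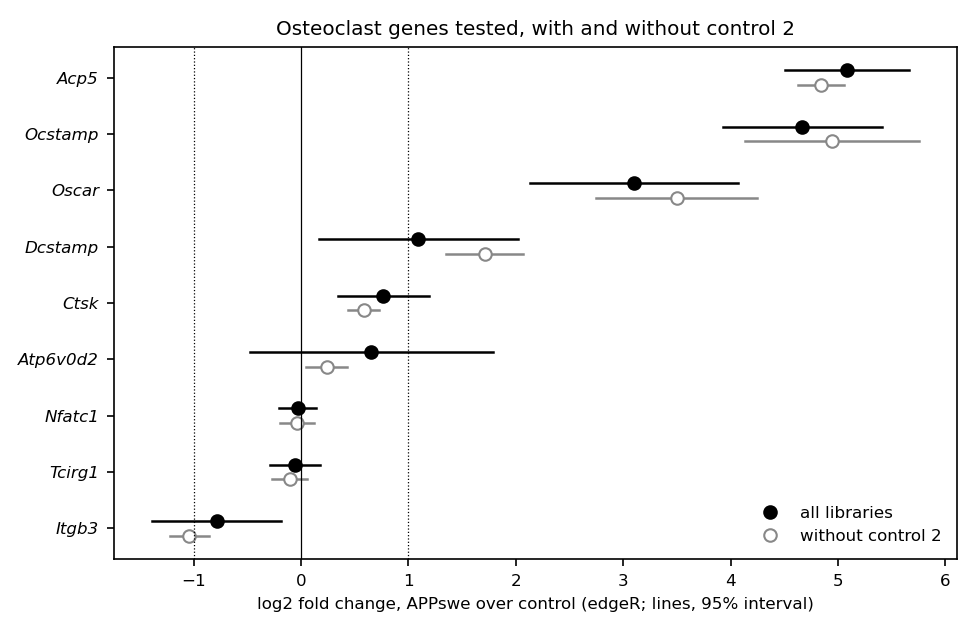
Log2 fold change of APPswe over control (horizontal axis) for the 9 members tested, with 95% intervals from edgeR, using all libraries (filled) or without control 2 (open). Acp5, Ocstamp and Oscar lie above 2 either way, and Nfatc1 and Tcirg1 lie on 0. The intervals of Dcstamp, Itgb3 and Atp6v0d2 narrow once control 2 is left out. The estimate of Itgb3 then lies past the dotted limit of -1, which its interval still spans.

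The members thus differed widely in how far they moved. Acp5, Ocstamp and Oscar had low levels in controls and rose 34.0-fold, 25.4-fold and 8.57-fold by the edgeR fit. Ctsk and Dcstamp lay 1.70-fold and 2.13-fold higher and Itgb3 1.72-fold lower, of which Ctsk alone passed the limit on the adjusted p. Atp6v0d2 lay 1.58-fold higher without passing, and Nfatc1 and Tcirg1 overlapped between the groups. Among the members, 6 of the 9 tested lay above control and 1 lay below control in every library, where 22.8% and 22.2% of all genes tested did so. The 6 include Oscar and Ocstamp, which reached the filter only through their APPswe libraries. These genes could not have been counted as below control, so the 6 cannot be read against the 22.8%. The libraries are named in 2 styles, with a hyphen (control 1, control 2 and APPswe 1) or without one (control 3, APPswe 2 and APPswe 3), and the labels do not say what the styles mean. Within the hyphen style the log2 ratio of mean CPM was 5.15 for Acp5, 4.46 for Ocstamp and 2.99 for Oscar, and within the other style it was 4.86, 5.07 and 3.06. For Itgb3 it was -0.58 and -1.12, and for Dcstamp 0.79 and 1.85, so the sign of these members was the same in both styles.

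Levels can be compared between genes only per transcript length, for which the deposited FPKM values were used. In control libraries the order of mean FPKM was Tcirg1 (153 ± 11.5, SD, n = 3), Ctsk (133 ± 31.8), Atp6v0d2 (20.01 ± 12.0), Nfatc1 (12.98 ± 0.0666), Itgb3 (6.32 ± 2.13), Acp5 (4.93 ± 1.71), Dcstamp (2.33 ± 1.38), Oscar (0.280 ± 0.157), Ocstamp (0.120 ± 0.0346) and Calcr. Neighbours overlapped between libraries for Tcirg1 and Ctsk, Atp6v0d2 and Nfatc1, Itgb3 and Acp5, Acp5 and Dcstamp, and Oscar and Ocstamp. In APPswe libraries the order was Ctsk (239 ± 13.6, SD, n = 3), Acp5 (187 ± 8.61), Tcirg1 (155 ± 10.6), Atp6v0d2 (33.1 ± 2.38), Nfatc1 (13.2 ± 0.629), Dcstamp (5.25 ± 0.368), Itgb3 (3.86 ± 0.0493), Ocstamp (3.30 ± 0.667), Oscar (2.57 ± 0.318) and Calcr. Acp5 moved from the sixth place to the second, and there it did not overlap Ctsk above it or Tcirg1 below it. Itgb3 and Ocstamp, and Ocstamp and Oscar, overlapped.

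Of 92 other genes tested in 5 pathway lists, 8 were called in either direction, or 8.7%, near the 7.34% of all genes tested. Of the receptors, adaptors and transcription factors of RANK and immunoreceptor signalling, 34 of 35 were tested, 2 were called higher and 1 lower, with a median log2 fold change of -0.15. Tnfrsf11a, the gene of RANK, was at 52.4 ± 7.15 CPM in control libraries (SD, n = 3) and 47.2 ± 3.06 CPM in APPswe libraries (edgeR adjusted p = 0.385). Csf1r, the CSF1 receptor gene, was at 777, 1361 and 819 CPM in the controls and 939, 934 and 937 CPM in the APPswe libraries, with log2 fold change -0.074 by edgeR (adjusted p = 0.832). Without control 2, its highest library, the direction turned to 0.23 (edgeR adjusted p = 0.00556). Prdm1 encodes Blimp1, a repressor of genes that hold back osteoclast formation, and rose from 2.71 ± 0.576 CPM to 11.1 ± 0.726 CPM, with log2 fold change 2.03 by edgeR (adjusted p = 0.00122). Fos, an AP-1 gene needed for the osteoclast fate, rose from 35.8 ± 12.1 CPM to 91.0 ± 5.91 CPM, with log2 fold change 1.34 by edgeR (adjusted p = 0.0119), and lost the call without APPswe 2 or APPswe 3 (edgeR adjusted p of 0.0572 and 0.0551). Plcg2, a phospholipase between immunoreceptors and calcium, fell by 1.08 on the log2 scale (edgeR adjusted p = 0.0104), and its log2 fold change was -0.83, under the limit, without control 2. It also lost the call with any APPswe library left out, at edgeR adjusted p-values of 0.0537 to 0.0594.

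Among the genes for acid secretion, matrix proteolysis and other functions of mature osteoclasts, all 23 were tested, 3 were called higher and none lower. Mmp9, a gelatinase of osteoclasts and of other myeloid cells, had the largest log2 fold change of the list, 5.83 by edgeR (adjusted p = 0.000811). Rufy4 and Car2 rose from very few counts, 8 and 11 in all control libraries together, to 176 and 64 in the APPswe libraries. Both reached the filter only through their APPswe libraries, so they could not have been called lower. The ratio of summed counts was 21.7 for Rufy4 (exact 95% interval 10.8 to 51.0) and 5.74 for Car2 (exact 95% interval 3.00 to 12.1), and their edgeR adjusted p-values were 0.00165 and 0.00715. Car2, the carbonic anhydrase that supplies protons, lost its call without APPswe 3 (edgeR adjusted p = 0.0514). The chloride channel gene Clcn7 and its partner Ostm1, which balance the charge of the pumped protons, had log2 fold changes of -0.60 and -0.40 (edgeR adjusted p = 0.0061 and 0.01), under the limit of 1. The list's median log2 fold change was -0.16.

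None of the 18 fusion and adhesion genes was called in either direction, with a median log2 fold change of -0.39. At the limit on the adjusted p alone, with all libraries, 9 of them were lower and none higher, where 12% and 10.5% of all genes tested were. Without control 2 the counts were 9 lower and 3 higher. The share of all genes at that limit was not taken for that fit, so these counts have no background. Rac2, a small GTPase of blood cells, had the most negative log2 fold change of that list, -0.79 by edgeR (adjusted p = 0.0018). None of the 13 inhibitors of osteoclast formation was called with all libraries, and without control 3 the list's Id3 was called higher. Irf8, a transcription factor that holds macrophages back from the osteoclast fate, was at 105 ± 6.69 CPM in control libraries (SD, n = 3) and 67.0 ± 3.32 CPM in the APPswe ones, with log2 fold change -0.65 by edgeR (adjusted p = 0.00314). Of the 4 signals made by osteoblast-lineage cells, the RANKL gene Tnfsf11 was called higher (log2 fold change 2.60, edgeR adjusted p = 0.000811) and the osteoprotegerin gene Tnfrsf11b lower (log2 fold change -2.24, edgeR adjusted p = 0.0471, with overlapping groups), while Csf1 had a log2 fold change of -0.48. Tnfrsf11b lost its call with any library other than control 2 left out, at edgeR adjusted p-values of 0.114 to 0.155. Control 2 held 15.4 CPM of it, against 98.8 and 101 CPM in the other controls and 14.6 to 15.8 CPM in APPswe libraries. Without control 2 its log2 fold change was -2.71 (edgeR adjusted p = 2.11e-09).

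**Figure D3:**
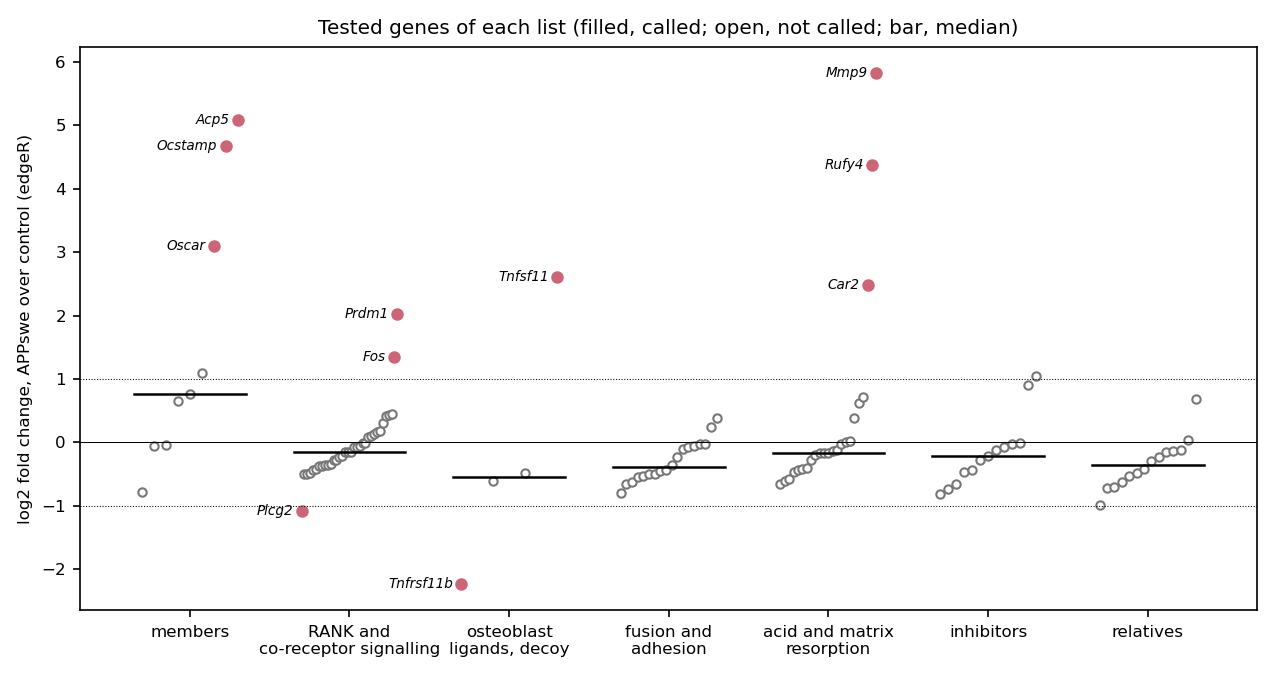
Log2 fold change of APPswe over control from edgeR (vertical axis) for every tested gene of the 10 members and of 6 lists of related genes, with called genes filled and named and a bar at each list's median. The median of the members tested is 0.77, and those of the 6 lists lie between -0.54 and -0.15, with called genes on both sides, Mmp9 at 5.83 and Tnfrsf11b at -2.24 being the farthest out.

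Each of 6 members was set against a more widely expressed relative by the ratio of their FPKM in each library, tested with an exact two-sided permutation test, for which 3 against 3 libraries cannot go below p = 0.1. The Acp5 to Acp2 ratio was 0.178, 0.0999 and 0.193 in the controls and 5.63, 6.41 and 6.64 in the APPswe libraries, so that the osteoclast phosphatase went from the scarcer to the more abundant of this pair. The Ctsk to Ctsb ratio was 0.0237, 0.0191 and 0.0228 in the controls and 0.0730, 0.0682 and 0.0647 in the APPswe libraries. Ctsb, a lysosomal cathepsin of many cells, itself had a log2 fold change in CPM of -0.99 by edgeR (adjusted p = 0.00139), just under the limit, and was called lower without control 2. The Tcirg1 to Atp6v0a1 ratio was 1.83, 2.18 and 1.88 against 3.00, 3.12 and 3.10, and the log2 fold change in CPM of Atp6v0a1 was -0.72 by edgeR (adjusted p = 0.0106). The Atp6v0d2 to Atp6v0d1 ratio was 0.169, 0.0412 and 0.143 against 0.307, 0.250 and 0.264, a mean log2 difference of 1.45 that was 0.81 without control 2. These 4 ratios did not overlap between the genotypes (exact permutation p = 0.1 each, the smallest possible, and 0.15 adjusted over the 6 pairs). The Nfatc1 to Nfatc3 and Itgb3 to Itgb1 ratios overlapped (exact permutation p = 0.6 and 0.4).

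**Figure D4:**
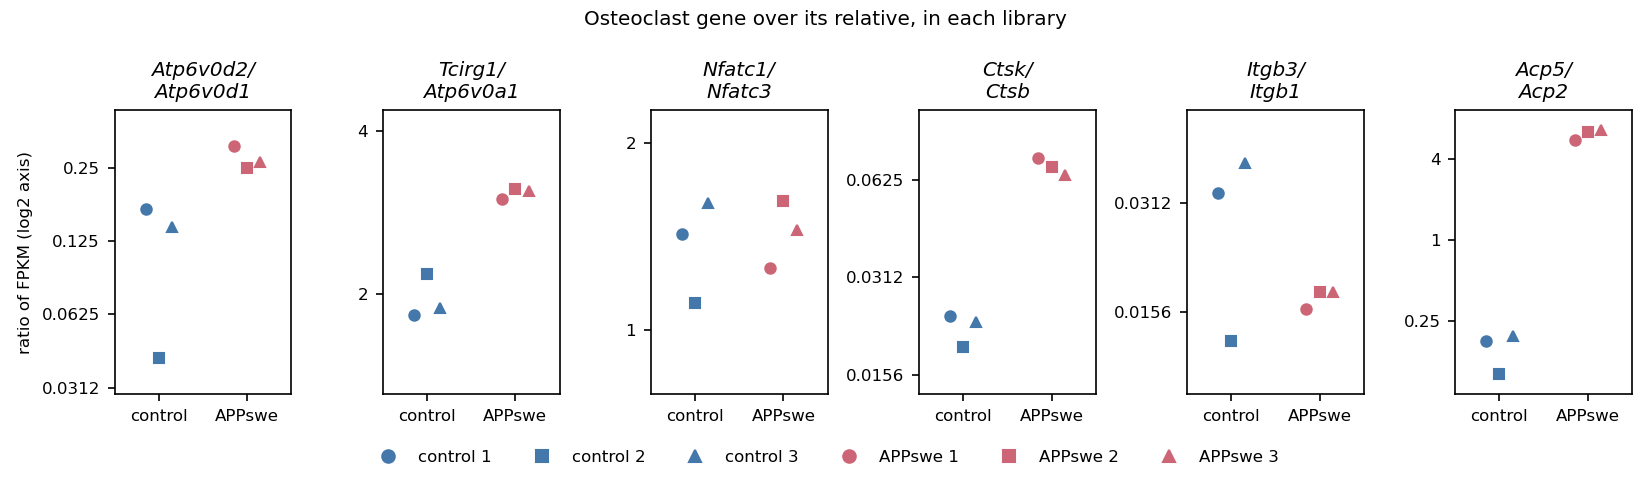
Ratio of FPKM (vertical axes on a log2 scale) of 6 osteoclast genes to a more widely expressed relative in each library, with the replicate shown by the symbol. The ratios of Acp5, Ctsk, Tcirg1 and Atp6v0d2 lie higher in all 3 APPswe libraries, and those of Nfatc1 and Itgb3 overlap.

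Markers of other cell types moved with the genotype as well, and their part in the members' differences was not tested. Macrophage markers were abundant in these libraries, which are labelled as osteoblasts. In bulk libraries fewer cells of a type and less RNA per cell cannot be told apart. The summed level of 13 macrophage markers was 15840 to 21385 CPM in control and 10920 to 11686 CPM in APPswe libraries. It thus lay lower where Acp5, Ocstamp and Oscar lay higher, and none of these markers was at 0 in any library. Lyz2 made up most of the sum, at 9767 to 16076 CPM in control and 7144 to 7875 CPM in APPswe libraries. Singly, 7 of the 13 lay below control and 1 above control in every library, and the others overlapped. Of all genes tested, 22.2% and 22.8% did so. Of the 13, Aif1 was called higher and Cd14 lower, but neither was called without control 2, where Lyz2 was called lower, or without any one APPswe library. The summed level of 12 osteoblast markers was 8683 to 11471 CPM in control and 7957 to 8759 CPM in APPswe libraries, which overlap, and 1 of them, Sp7, was called higher. Sp7 lost its call without control 1 (edgeR adjusted p = 0.0507) and without any APPswe library (0.0686 to 0.0837). Without control 2, Phex, Bglap2 and Dmp1 were called lower as well. Col1a1 and Col1a2 made up most of the osteoblast sum, and control 2, where the sum was highest, held 3 counts of Ibsp and 2 counts of Dmp1, against 1371 to 1468 and 254 to 261 counts in the other controls. The summed level of 10 skeletal muscle markers was 2.65 to 12.2 CPM in control and 175 to 179 CPM in APPswe libraries, and all 9 tested were called higher, with Ckm at 0 in every control library. Except for Acta1 and Des, the muscle genes tested reached the filter only through their APPswe libraries, and Myh3 lost its call without any one APPswe library, which left 8 called. Of 8 endothelial markers, 7 were tested and 1, Kdr, was called lower, whereas all 8 were called lower without control 2. Their sum was 27.4 CPM in control 2, 221 and 233 CPM in the other controls, and 11.6 to 13.8 CPM in APPswe libraries. Neutrophil markers summed to 14.6 to 32.4 CPM in control and 43.4 to 48.2 CPM in APPswe libraries. Csf3r made up most of this sum, at 14.2 to 29.8 CPM in control and 40.9 to 45.8 CPM in APPswe libraries. The others were at low levels, and the means of Camp, Ltf and Ly6g were lower in APPswe libraries. S100a9, Mpo, Elane and Retnlg were at 0 in every control library. Lymphocyte markers, of which 7 of 10 had a row, stayed under 3 CPM in every library. No marker of these last 2 lists was called with all libraries. Without control 2, the neutrophil marker Camp was called lower and the lymphocyte marker Cd79b higher, and without control 1 the neutrophil marker S100a8 was called higher.

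**Figure D5:**
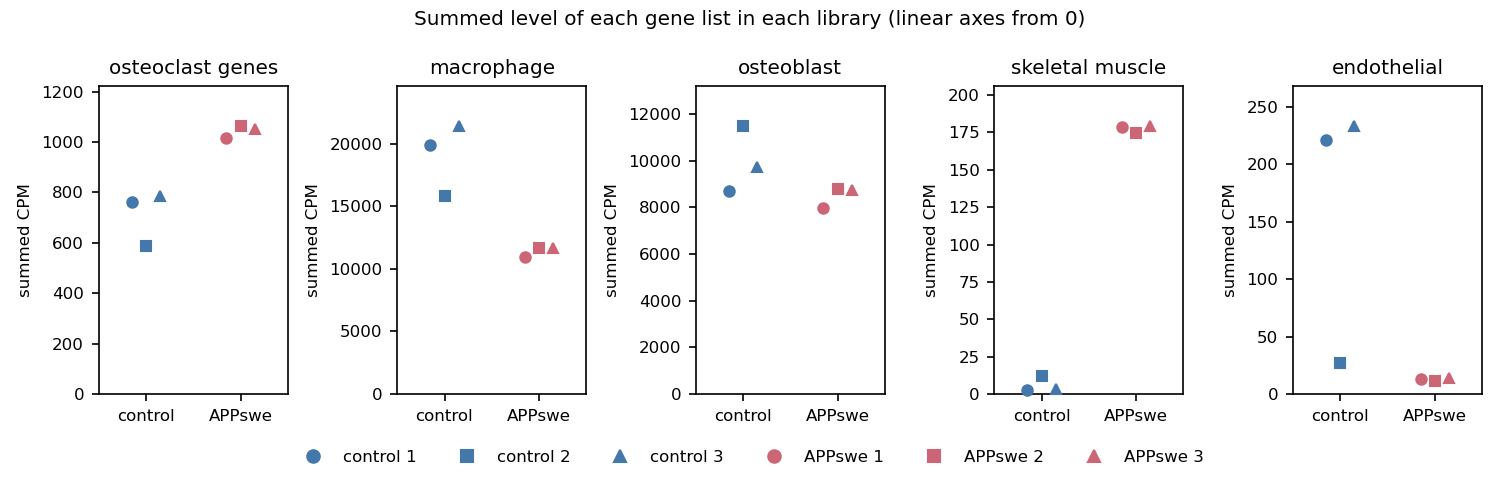
Summed CPM (vertical axes, linear from 0) of the 10 osteoclast genes and of macrophage, osteoblast, skeletal muscle and endothelial marker lists in each library, with the replicate shown by the symbol. The sum of the osteoclast genes is 586 to 786 CPM in control and 1016 to 1063 CPM in APPswe libraries. The macrophage sum, most of which is Lyz2, moves the other way, and the muscle sum is near 0 in controls.

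The genes outside these lists whose log2 CPM followed the mean standardized profile of the 9 members tested most closely over the 6 libraries were Trmu, Plppr2, Tjap1, Nfkbid and Lgr6, with Pearson r of 0.994 to 0.996. The profile averages members of different direction, the libraries share their genotype contrast, and 270 of the 12336 genes compared reached an r of 0.95, so the order is a description only.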

How the data were processed

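Bulk RNA from 6 libraries was sequenced on the DNBseq platform. The authors deposited raw counts of reads for each gene. They also deposited FPKM, rounded to 2 decimals, with blank cells in 397 genes in the libraries named with a hyphen and 716 genes for the others, read here as 0 (none in the members). The submitters' processing notes name GRCm38. The aligner and counting tool are not given in the sources used here. The authors' fold changes and p-values in the second table were not used.

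The main test on the counts used edgeR 4.0.16 in R 4.3.3 (TMM, filterByExpr, quasi-likelihood test without covariate, Benjamini-Hochberg adjustment over the 13484 genes tested). The standard error is the log2 fold change over the square root of F. Ratios were tested in SciPy 1.17.1. In simulated counts, 184 of 199 genes changed by a log2 fold of 2 were called, with 9 unchanged genes, of 13371 tested. No library repeated another within sampling noise (15 pairs). The lowest chi-square over degrees of freedom was 1.59, for APPswe 2 and APPswe 3. The next lowest was 6.17, for control 1 and control 3. APPswe 2 and APPswe 3 thus differed little beyond counting noise, and whether they came from different animals is not given in the sources used here. The study's methods use DESeq2, tried here (1.42.0) as an alternative, with limma 3.58.1 on FPKM.

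The members, the gene lists and the tests were chosen with earlier results of these data known. The genes named are the members, further pathway genes (1 of which is not reported here), the called genes of each list with the largest changes, the relatives in the ratios, and the 5 genes of most similar profile. Rac2, Id3 and the marker genes named were chosen after their values were seen.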

Additional observations from a re-analysis of the deposited data

How the results depend on the processing

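Acp5, Ocstamp and Oscar were called higher in all 18 alternatives, and 3 or 4 members were called higher, the fourth being Dcstamp. Without control 2, 1 member was called lower (0 to 1 with single libraries left out), and in all other alternatives none was. The deviations of same-numbered libraries from their group means correlated at 0.0909, -0.0492 and 0.214. Those of libraries with different numbers correlated at -0.284 to 0.169. With so few libraries these values cannot show whether the replicate number pairs them. With the replicate block the same 3 members were called and the median log2 fold change of the members was 0.88. That median was 0.93 with limma on log2(FPKM + 1), with or without a filter, 0.99 on log2(FPKM + 0.1), and 0.58 to 0.89 with single libraries left out, and the cause was not tested.

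Of all genes, 1414 were called higher and 1622 lower at the adjusted p alone. The pathway lists, here with the list of relatives added, then held 46 calls against 8 in the main test. When folds were tested against the limit of 1 itself, 147 genes were called higher and 72 lower, with 4 calls in these lists. Limma on log2(FPKM + 1) called 322 and 182, without a filter 305 and 170 (5 in the lists), and 251 genes were called lower on log2(FPKM + 0.1). The share of calls that were higher was 50.9% in the main test, 63.5% to 64.2% in these limma fits, 58.4% without TMM, 67.1% against the limit of 1, 46.6% at the adjusted p alone, 45.9% with DESeq2 and 42.5% without control 2. With single libraries left out, 281 to 670 genes were called higher, 230 to 905 lower and 4 to 8 in the lists. The Nfatc1 to Nfatc3 log2 ratio difference of 0.075 turned to -0.0759 without control 2 and to -0.0100 without APPswe 2, and spanned -0.0759 to 0.192 with single libraries left out. The log2 fold changes of Nfatc1 and Tcirg1 kept their sign in 14 and 12 of the 18 alternatives and never passed. Calcr had few counts in every library, and Oscar and Ocstamp had few in the controls, so these levels are imprecise.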
